A study of Mus musculus with 6 samples.

Results

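The interleukin-1 system and the inflammasome were examined in articular cartilage of mice as a group of 10 genes. The members were the rows of the deposited gene table whose gene name was Il1a, Il1b, Il1rn, Il18, Il1r1, Il1r2, Il1rap, Nlrp3, Pycard or Casp1, and all 10 were found among its 34709 genes. The study compared knockout (KO) mice, in which 1 gene had been ablated, with wildtype mice. Both groups were 18 months old (per the column names) and male (per the study's methods), neither was given a treatment that the labels name, and no restriction of the deletion to a tissue is named. RNA was sequenced from 3 libraries per group.

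Interleukin-1 alpha and beta are cytokines that bind the receptor IL1R1, which recruits the accessory chain IL1RAP and signals through MYD88. The pathway is held back by an antagonist that occupies the receptor (IL1RN) and by a decoy receptor without a signalling domain (IL1R2). Interleukin-1 beta and interleukin-18 are made as inactive precursors and are cut by caspase-1 after a sensor such as NLRP3 and the adaptor ASC (gene Pycard) assemble into an inflammasome, and in cartilage interleukin-1 is known for inducing matrix-degrading enzymes.

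Before the groups were compared, the libraries were set against each other. KO replicates 2 and 3 were far closer to each other than any other pair of libraries. The noise ratio, which is the squared difference between 2 libraries relative to Poisson sampling of the deposited counts, was 6.29 for this pair across 2364 highly expressed genes and ranged from 66.7 to 407 for the other 14 pairs. Since a deposited count was not a single read pair, the ratio serves only to set pairs of libraries against each other. These 2 libraries were therefore averaged and counted as 1 sample, so that 2 KO samples and 3 wildtype samples, 5 in all, entered the tests. KO replicate 1 was nearer to wildtype replicates 2 and 3 (noise ratios 89.65 and 177.8) than to KO replicates 2 and 3 (219.6 and 224.9). Its noise ratio to wildtype replicate 1 was 255. Total counts ranged from 52268311 to 63331135 per library. The labels did not say whether the libraries came from separate animals, so p-values measure the spread between these libraries, which may be technical.

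The labelled tissue was checked against cell type markers, each list being summed as FPKM (fragments per kilobase of gene model, relative to all fragments of that library). The 12 chondrocyte markers summed to between 551 and 1255 FPKM, most of it from Prg4 (lubricin, 402 to 1034 FPKM), while the cartilage collagen gene Col2a1 lay between 12.4 and 21.3 FPKM. By contrast, the 14 neutrophil markers summed to 62835, 51621 and 52823 FPKM in KO replicates 1, 2 and 3. In wildtype replicates 1, 2 and 3 they summed to 27405, 44083 and 31150 FPKM. Most of each sum came from S100a8 and S100a9, and the order of the KO libraries differed between the genes. S100a8, S100a9, Camp and Ly6g were highest in KO replicate 1 (S100a9 27817, 22113 and 22919 FPKM in KO replicates 1, 2 and 3). Others, such as Mmp8 (255.8, 401.8 and 399.8 FPKM) and Csf3r (117.3, 187.9 and 188.4 FPKM), were lowest there among the KO libraries. Of the 14 genes, 12 were above every wildtype library in every KO library, beside 11.3% of the 15373 genes averaging 0.5 FPKM or more. For S100a8 the separation was narrow, at 11795 FPKM in KO replicate 2 and 11699 FPKM in wildtype replicate 2. The 8 B cell markers summed to between 91.2 and 138.5 FPKM in KO and between 280 and 314 FPKM in wildtype. In every KO library 8 of 8 were below every wildtype library, beside 13.7% of the same 15373 genes. The sum of the 12 monocyte and macrophage markers overlapped between the groups, at 602 to 615 FPKM in KO and 523 to 613 FPKM in wildtype. Within this list, the monocyte gene Ly6c2 was above every wildtype library in KO (218 to 248 against 125 to 144 FPKM), and the macrophage gene Mrc1 was below (7.61 to 8.08 against 10.3 to 15.4 FPKM). The 8 T and NK cell markers summed to 90.5 to 112 FPKM in KO and 69.1 to 81.7 FPKM in wildtype. Most of these sums came from Nkg7 (77.65 to 99.97 FPKM in KO and 52.8 to 67.07 FPKM in wildtype). By gene, 7 of 8 had a log2 difference below 0. The 7 osteoclast markers summed to 371 to 426 FPKM in KO and 505 to 1257 FPKM in wildtype, and the 8 synovial fibroblast markers overlapped at 38.3 to 44.9 FPKM and 31.6 to 46.8 FPKM. No listed marker was at 0 in all libraries. Neutrophils are a known source of Il1b and Il1r2, and in bulk tissue more or fewer cells of a type cannot be told apart from more or less RNA per cell. The part of these cell types in the values that follow was not tested.

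**Figure D1:**
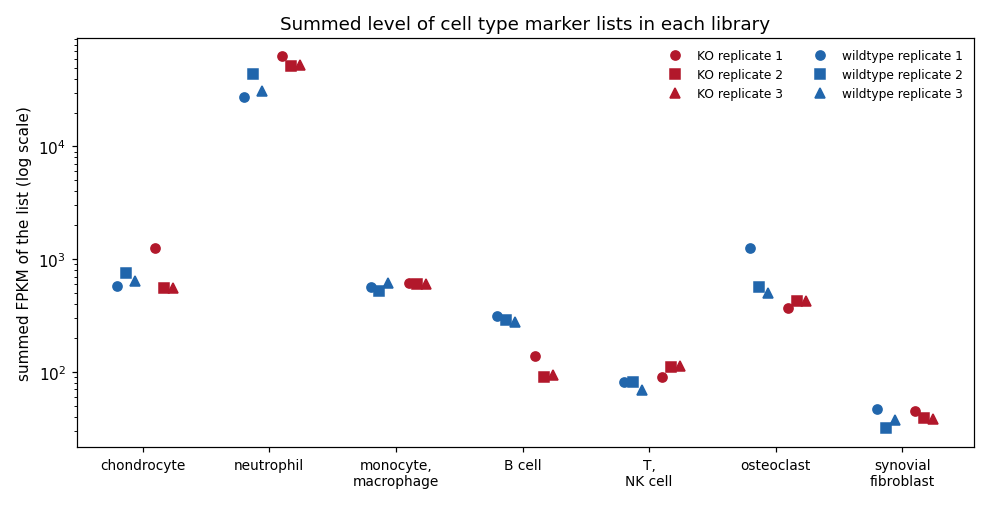
Summed FPKM of 7 cell type marker lists (log axis) in each of the 6 libraries, with wildtype in blue, KO in red and replicates 1, 2 and 3 as circle, square and triangle. The neutrophil sum lay above every wildtype library in all KO libraries, and the B cell sum lay below.

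In the wildtype libraries, labelled as articular cartilage, all 10 members were detected. Their levels are given per transcript length so that genes can be set side by side. The order of the mean level was Il1b (16.2 FPKM), Il1r2 (15.7 FPKM), Pycard (10.4 FPKM), Casp1 (10.2 FPKM), Il1rn (9.61 FPKM), Il18 (7.82 FPKM), Il1r1 (4.31 FPKM), Il1a (3.72 FPKM), Nlrp3 (3.63 FPKM) and Il1rap (1.63 FPKM). The decoy receptor was thus the most abundant receptor transcript in these libraries, and the signalling receptor and its accessory chain stood in the lower part of the order. In the same libraries the neutrophil markers summed to 27405 to 44083 FPKM and the chondrocyte markers to 578.8 to 752.7 FPKM. Which cells held the members' transcripts was not tested. The ranges of the 3 wildtype libraries overlapped for most neighbours in this order, and they did not overlap between Il1r2 and Pycard, between Il18 and Il1r1, or between Nlrp3 and Il1rap.

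To ask how the members differed in the KO libraries, each was read from a fit over the 15373 genes that averaged 0.5 FPKM or more. Genes were tested with the quasi-likelihood method of edgeR, and p-values were adjusted over all of them (Benjamini-Hochberg). Il1b, Il1r2, Pycard and Nlrp3 were higher in all 3 KO libraries than in any wildtype library, and Il18 was lower in all of them. The other 5 members overlapped between the groups. Over all tested genes, 11.3% had every KO library above every wildtype library and 13.7% had every KO library below, 25.0% in either direction, and the 4 of 10 above and 1 of 10 below are to be read against these shares. At an adjusted p-value under 0.05, 0 of the 10 members were called by edgeR, beside 0.00% of all tested genes, and limma also called 0. At an unadjusted p-value under 0.05, 4 members were found (Il1b, Il1r2 and Pycard higher, Il18 lower), beside 13.7% of all tested genes in either direction, 7.63% higher and 6.07% lower. DESeq2 on the same 5 samples called 2 members, Il1b (DESeq2 adjusted p = 0.0431) and Il1r2 (DESeq2 adjusted p = 0.014), beside 5.72% of all tested genes. When the 6 libraries were taken as labelled, edgeR called 1 member, Il1r2, beside 3.71% of all tested genes. Of the log2 differences (KO minus wildtype), 7 were above 0 and 3 below, with a median of 0.29 against -0.016 for all tested genes.

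**Figure D2:**
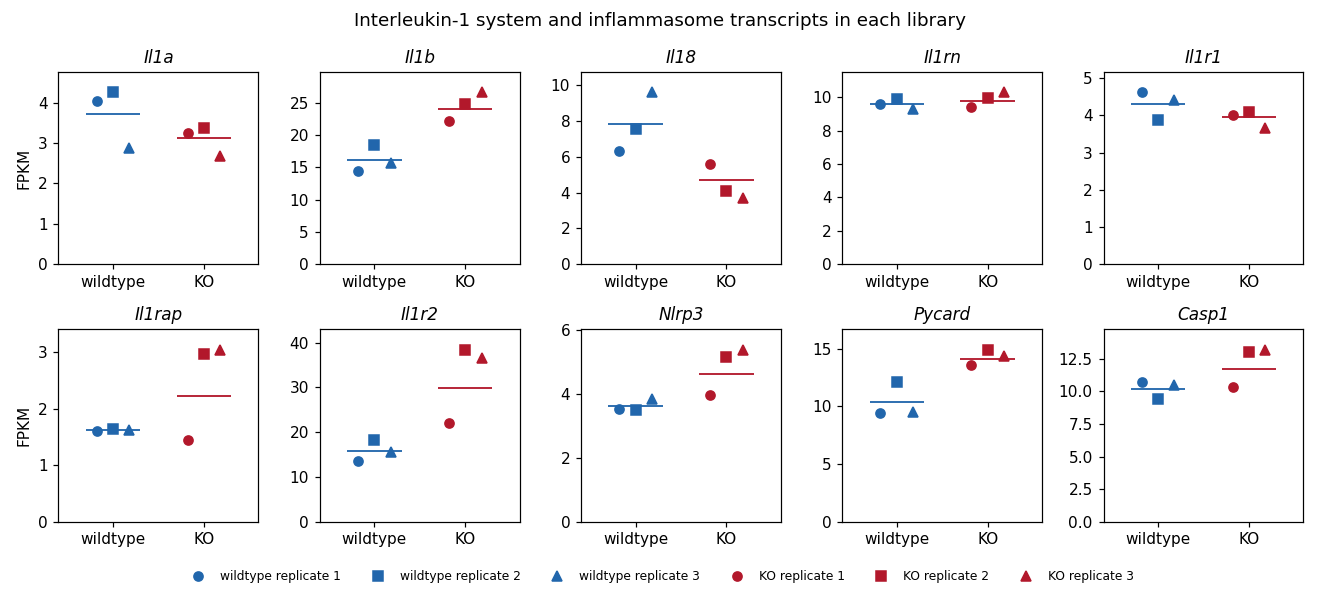
FPKM of the 10 members in each library, with 1 panel per gene and the axis starting at 0. Points are libraries (circle, square and triangle for replicates 1, 2 and 3) and lines are group means, the KO mean being taken over 2 samples after averaging KO replicates 2 and 3. Il1b, Il1r2, Nlrp3 and Pycard separated upward in KO, Il18 separated downward, and the other 5 panels overlapped.

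The ligands were examined first. Il1b (ENSMUSG00000027398), which encodes the secreted, inflammasome-dependent interleukin-1 beta, had 22.2, 24.7 and 26.6 FPKM in KO replicates 1, 2 and 3 and 14.4, 18.4 and 15.7 FPKM in wildtype replicates 1, 2 and 3. All KO libraries were above all wildtype libraries, the lowest KO library and the highest wildtype library being 22.2 and 18.4 FPKM. KO averaged 23.9 ± 2.43 FPKM (SD, n = 2), against a wildtype average of 16.2 ± 2.03 FPKM (SD, n = 3). This gave a log2 difference of 0.58 (SE 0.163) with an unadjusted p of 0.00903 and an edgeR adjusted p of 0.203, so the difference did not pass the threshold over all genes. It stayed between 0.48 and 0.71 with each library left out in turn.

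Il1a (ENSMUSG00000027399) encodes interleukin-1 alpha, which is active as a precursor and acts as an alarm signal when cells are damaged. Its levels were 3.24, 3.37 and 2.68 FPKM in the KO libraries and 4.04, 4.25 and 2.87 FPKM in the wildtype libraries. Wildtype replicate 3 lay among the KO libraries and the groups overlapped. The log2 difference of -0.23 (SE 0.256) was smaller than its error, with an edgeR adjusted p of 0.789, and it lay between -0.38 (without wildtype replicate 3) and -0.091 (without wildtype replicate 2) with each library left out. The FPKM ratio of Il1b to Il1a was 6.86, 7.35 and 9.92 in KO and 3.57, 4.33 and 5.47 in wildtype, which did not overlap. This ratio is a description of the same values and was not tested.

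The 2 genes are neighbours on the reverse strand of mouse chromosome 2 (GRCm38), with Il1a at 129299610 to 129309972 and Il1b at 129364570 to 129371139, and 54.6 kb between them. Since they stand side by side, the 250 bases upstream of each transcript start (RefSeq, GRCm38.p6, reverse strand, 5′ to 3′) are shown. The capitals mark the letters TATAAA, the core of a TATA box, found from 31 to 26 bases before the start of Il1b (chr2:129371140-129371389) and from 32 to 27 bases before that of Il1a (chr2:129309973-129310222).
Il1b: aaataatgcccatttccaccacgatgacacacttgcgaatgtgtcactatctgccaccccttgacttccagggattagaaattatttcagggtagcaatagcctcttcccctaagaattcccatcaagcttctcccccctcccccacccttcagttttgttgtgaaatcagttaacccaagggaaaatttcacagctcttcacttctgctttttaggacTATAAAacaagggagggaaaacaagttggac
Il1a: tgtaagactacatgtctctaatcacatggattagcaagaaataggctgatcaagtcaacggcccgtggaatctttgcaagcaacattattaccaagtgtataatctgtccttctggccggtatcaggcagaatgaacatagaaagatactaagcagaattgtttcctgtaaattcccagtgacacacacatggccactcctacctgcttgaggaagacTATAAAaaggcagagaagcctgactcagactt

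In the 250 bases before the start, on both strands, 5 sets of letters were searched in all 32851 RefSeq promoter windows and in the 14 windows of the 10 members. TATAAA, present in 12.4% of all windows, was found at Il1a, Il1b and Il18. TGANTCA (the AP-1 motif, 6.75%) was found at Il1a and in 1 window of Il1rn. CACGTG (an E-box, 6.02%) was found at Il1r2 and Casp1, and TTGCNNAA (C/EBP, 9.56%) at Pycard and in 1 window of Il1r1. The Il1r2 window belonged to a start at 40086093, inside the range of the counted gene (40074079 to 40125231). The bases upstream of 40074079 were not searched. The NF-kappaB motif (1.21%) matched none of the member windows. A match is a description of letters, not of a bound site.

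Il18 (ENSMUSG00000039217, chromosome 9, 50554827 to 50581840) encodes interleukin-18, the other caspase-1 substrate, which drives interferon gamma production by T and NK cells. It had 5.57, 4.07 and 3.72 FPKM in the KO libraries and 6.32, 7.56 and 9.59 FPKM in the wildtype libraries. Every KO library was below every wildtype library, although KO replicate 1 and wildtype replicate 1 were less than 1 FPKM apart. The KO mean was 4.73 ± 1.19 FPKM (SD, n = 2), the wildtype mean was 7.82 ± 1.65 FPKM (SD, n = 3), and the log2 difference was -0.70 (SE 0.296), with an unadjusted p of 0.0497 and an edgeR adjusted p of 0.364. Il1b and Il18 thus separated in opposite directions, and their FPKM ratio was 3.99, 6.08 and 7.14 in KO and 2.28, 2.43 and 1.64 in wildtype. This ratio describes the same values, and no test of it was run.

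Il1rn (ENSMUSG00000026981, chromosome 2, 24336853 to 24351494) encodes the interleukin-1 receptor antagonist. Its levels were 9.40, 9.97 and 10.3 FPKM in KO and 9.62, 9.92 and 9.29 FPKM in wildtype. The 6 libraries lay within about 1 FPKM of each other and the groups overlapped. Their log2 difference was 0.04 (SE 0.12; edgeR adjusted p = 0.945). The ratio of the antagonist to Il1b was 0.423, 0.403 and 0.387 in KO and 0.667, 0.539 and 0.593 in wildtype, again with no test. All KO libraries had the lower ratio, which restates the separation of Il1b because Il1rn differed little.

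Among the receptors, Il1r2 (ENSMUSG00000026073), the decoy receptor, had the largest log2 difference of the 10 members. Its levels were 22.1, 38.4 and 36.5 FPKM in KO replicates 1, 2 and 3 and 13.5, 18.3 and 15.5 FPKM in wildtype replicates 1, 2 and 3. All KO libraries were above all wildtype libraries, and KO replicate 1 was closer to the wildtype libraries than to the other KO libraries. KO averaged 29.8 ± 10.8 FPKM (SD, n = 2), and wildtype averaged 15.7 ± 2.43 FPKM (SD, n = 3). Their log2 difference was 0.92 (SE 0.232), with an unadjusted p of 0.0053 and an edgeR adjusted p of 0.182. It was 1.02 with an edgeR adjusted p of 0.0451 when the 6 libraries were taken as labelled, and 0.56 when KO replicates 2 and 3 were both left out.

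Il1r1 (ENSMUSG00000026072), the signalling receptor, lies 99.8 kb from Il1r2 on chromosome 1 (Il1r2 at 40074079 to 40125231, Il1r1 at 40225080 to 40317257). It had 4.03, 4.08 and 3.67 FPKM in KO and 4.62, 3.89 and 4.42 FPKM in wildtype. The groups overlapped, with wildtype replicate 2 among the KO libraries. On the log2 scale the difference was -0.10 (SE 0.141; edgeR adjusted p = 0.843). The FPKM ratio of decoy to signalling receptor was 5.49, 9.39 and 9.94 in KO and 2.91, 4.70 and 3.50 in wildtype. Every KO library thus had the higher ratio, a description of the same values that was not tested.

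Il1rap (ENSMUSG00000022514, chromosome 16, 26581704 to 26730117), the accessory chain that interleukin-1, interleukin-33 and interleukin-36 receptors share, split the KO libraries. It had 1.44, 2.96 and 3.04 FPKM in KO and 1.61, 1.64 and 1.62 FPKM in wildtype. KO replicate 1 was below every wildtype library and KO replicates 2 and 3 were above. The fitted log2 difference was 0.45 (SE 0.265; edgeR adjusted p = 0.537), and its direction rested on the averaged pair, since it was -0.094 without KO replicates 2 and 3 and 0.85 without KO replicate 1.

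The 3 inflammasome genes were next compared. Nlrp3 (ENSMUSG00000032691, chromosome 11, 59541568 to 59566956), the sensor, had 3.98, 5.16 and 5.39 FPKM in KO and 3.52, 3.51 and 3.85 FPKM in wildtype. The groups did not overlap, but KO replicate 1 and wildtype replicate 3 were close, at 3.98 and 3.85 FPKM. The log2 difference of 0.36 (SE 0.167) had an unadjusted p of 0.0657 and an edgeR adjusted p of 0.408.

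Pycard (ENSMUSG00000030793, chromosome 7, 127989708 to 127993867) encodes ASC, the adaptor between sensor and caspase. It had 13.6, 14.9 and 14.4 FPKM in KO and 9.45, 12.1 and 9.52 FPKM in wildtype. All KO libraries were above all wildtype libraries, and KO replicate 1 was with the other KO libraries here. The log2 difference was 0.46 (SE 0.167), with an unadjusted p of 0.0273 and an edgeR adjusted p of 0.289, and it was 0.46 without KO replicate 1 and 0.47 without KO replicates 2 and 3.

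Casp1 (ENSMUSG00000025888, chromosome 9, 5298508 to 5307290), the protease that cuts the precursors of interleukin-1 beta and interleukin-18, had 10.3, 13.05 and 13.2 FPKM in KO and 10.7, 9.41 and 10.5 FPKM in wildtype. KO replicate 1 lay among the wildtype libraries and the groups overlapped. The log2 difference was 0.21 (SE 0.135; edgeR adjusted p = 0.573).

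The members thus differed in how far they depended on KO replicate 1, the KO library outside the averaged pair. Without KO replicate 1, which left 1 KO sample assumed to vary like the wildtype, Il1r2 had a log2 difference of 1.21 (edgeR adjusted p = 0.0487), Il18 of -1.04, Nlrp3 of 0.50 and Casp1 of 0.33. Without KO replicates 2 and 3 these values were 0.56, -0.42, 0.21 and 0.099. Il1b moved less, from 0.63 to 0.53. All 10 members had the same direction without KO replicate 1, and 9 of 10 without KO replicates 2 and 3, the exception being Il1rap.

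**Figure D3:**
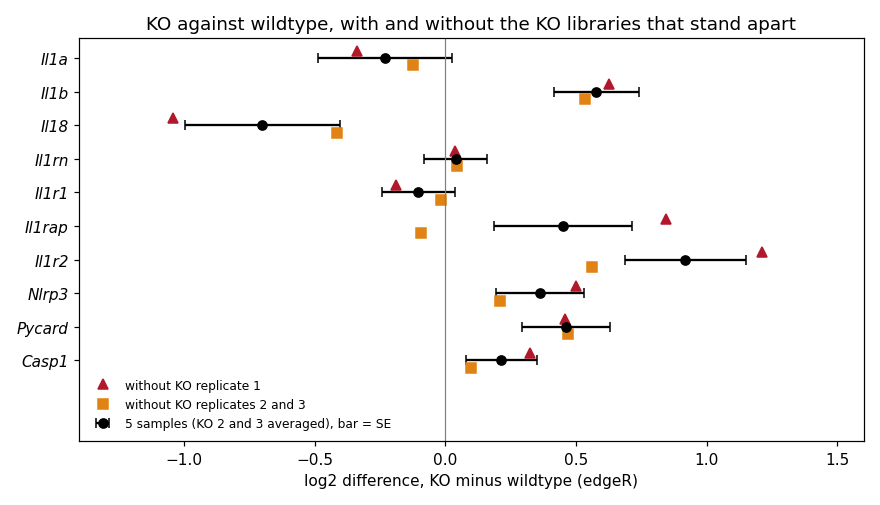
Log2 difference (KO minus wildtype, edgeR) of each member in the 5-sample fit (black, bar = SE), without KO replicate 1 (red triangle) and without KO replicates 2 and 3 (orange square). Il1b and Pycard moved little between the fits, Il1rap, Il18 and Il1r2 lay further from 0 without KO replicate 1, and Il1rap was below 0 without KO replicates 2 and 3.

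Some of the counts could hold reads of other genes. The members overlapped 8 annotated genes in the table, 6 of them on the opposite strand (among these Il1bos at Il1b, Gm14023 at Il1a and Bco2 at Il18), and it is not stated whether strand was used in counting. None of the 8 was above 0.822 FPKM in any library, the highest being Gm14023.

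Genes with a pattern close to Il1b were then sought among 7608 genes averaging 5 FPKM or more. The measure was the root mean square difference of centred log2 CPM over the 5 samples. CPM are counts relative to the library total after TMM scaling, here with a prior count of 2. The closest were Aprt (adenine phosphoribosyltransferase, 0.0227), Msra (methionine sulfoxide reductase, 0.0332), Mettl9 (0.0337), Arpc1b (a subunit of the actin-nucleating ARP2/3 complex, 0.0403) and Tmem273 (0.0428). Aprt had 40.1, 47.1 and 45.8 FPKM in KO and 25.2, 33.7 and 28.1 FPKM in wildtype. It shared the order of groups and the highest wildtype library with Il1b, which follows from its choice by likeness in these same samples. With 5 samples such likeness is common, and 365 genes lay under 0.15.

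The other genes of the pathway, a list of 45, were described in the same fit. Of these, 41 were in the table and 36 passed the filter on low values. The log2 difference was above 0 for 24 and below 0 for 12, with a median of 0.13 against -0.016 for all tested genes. At an adjusted p-value under 0.05, 0 of the 36 were called by edgeR, while 11 higher and 2 lower had an unadjusted p under 0.05, beside 7.63% and 6.07% of all tested genes. DESeq2 called 7 of the 36, beside 5.72% of all tested genes, and edgeR on the 6 libraries as labelled called 5 higher and 1 lower, beside 3.71%. The summed neutrophil markers were higher and the summed B cell markers lower in the same KO libraries, and their part was not tested.

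Of the other ligands and binding proteins, 2 were tested. The largest difference was that of interleukin-36 gamma (listed as Il1f9), a cytokine of the interleukin-1 family found in epithelia and myeloid cells, with 29.8, 51.3 and 54.4 FPKM in KO and 19.7, 25.4 and 24.2 FPKM in wildtype. All KO libraries were above all wildtype libraries, and the log2 difference was 0.84 (SE 0.232; edgeR adjusted p = 0.201). Il18bp, the secreted inhibitor of interleukin-18, overlapped between the groups (log2 difference 0.18, SE 0.17, edgeR adjusted p = 0.743). Il33 was between 0.0954 and 0.738 FPKM and was not tested.

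The other receptors gave differences in both directions. Il18rap, the accessory chain of the interleukin-18 receptor, had 13.9, 21.5 and 21.5 FPKM in KO and 11.9, 10.6 and 10.6 FPKM in wildtype. Its log2 difference was 0.69 (edgeR adjusted p = 0.175) and its partner Il18r1 overlapped between the groups at 0.48 (edgeR adjusted p = 0.483). In log2 difference both chains lay on the opposite side from Il18 itself, although none of these differences passed the threshold over all genes. Il1rl1, the receptor of interleukin-33, had 2.61, 2.15 and 2.29 FPKM in KO and 4.08, 3.93 and 4.45 FPKM in wildtype. All KO libraries were below all wildtype libraries, with a log2 difference of -0.76 (SE 0.166; edgeR adjusted p = 0.168). Sigirr, an inhibitory receptor of the family, was also below, at -0.21 (edgeR adjusted p = 0.653).

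Downstream of the receptor, 12 signalling genes were tested, with a median log2 difference of 0.045. Myd88, the adaptor of interleukin-1 and Toll-like receptors, had 26.1, 42.4 and 40.8 FPKM in KO and 23.6, 22.0 and 22.7 FPKM in wildtype, and its log2 difference was 0.58 (edgeR adjusted p = 0.222). KO replicate 1 was again the KO library nearest to wildtype. Irak4, the first kinase recruited by MYD88, was at 0.53 (edgeR adjusted p = 0.256), and Irak3, a kinase-dead member that restrains the pathway, was at 0.61 (edgeR adjusted p = 0.175), both with no overlap between the groups. Tab3, an adaptor of the kinase TAK1, was at -0.41 (edgeR adjusted p = 0.313) and overlapped. The abundant Tab2, Irak1 and Tollip lay at -0.00047, 0.050 and 0.059 and overlapped between the groups.

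Of the other inflammasome sensors and regulators, 11 were tested, with 7 above 0, 4 below and a median of 0.18. Mefv, which encodes the sensor pyrin and is expressed in granulocytes, had 10.6, 18.2 and 19.2 FPKM in KO and 8.64, 8.05 and 7.86 FPKM in wildtype (log2 difference 0.85, edgeR adjusted p = 0.175). Naip2, a receptor for bacterial secretion system proteins, had 11.96, 17.7 and 18.2 FPKM in KO and 9.43, 9.34 and 9.19 FPKM in wildtype (log2 difference 0.69, edgeR adjusted p = 0.171). Its count is uncertain because the Naip genes are close paralogs. Nlrp1a was at 0.77 (edgeR adjusted p = 0.31), and these 3 genes did not overlap between the groups. Txnip, a regulator of glucose uptake that can bind NLRP3, was the most abundant of the list with 128, 109 and 109 FPKM in KO and 144, 124 and 133 FPKM in wildtype, and its groups overlapped (log2 difference -0.15, edgeR adjusted p = 0.789). Nek7, a kinase that NLRP3 needs for assembly, was at -0.089 (edgeR adjusted p = 0.851).

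The last step of the pathway is the opening of membrane pores, and 6 inflammatory caspases and pore genes were tested. The log2 difference was above 0 for 5 and below 0 for 1, Casp12, with a median of 0.22. Casp12 had 1.767, 1.28 and 1.66 FPKM in KO and 2.205, 2.527 and 2.198 FPKM in wildtype, without overlap. Its log2 difference was -0.49 (edgeR adjusted p = 0.408). Gsdmd, whose product is cut by caspase-1 to form the pore, had 28.5, 33.8 and 35.1 FPKM in KO and 26.7, 23.8 and 23.8 FPKM in wildtype, which gave a log2 difference of 0.36 (SE 0.121; edgeR adjusted p = 0.26). Gsdme, a related pore former, had 3.83, 4.95 and 4.90 FPKM in KO and 2.66, 2.96 and 2.64 FPKM in wildtype, at 0.68 (SE 0.146; edgeR adjusted p = 0.166). The groups did not overlap for either gene. Casp4, the sensor of intracellular lipopolysaccharide, was at 0.56 (edgeR adjusted p = 0.353) with overlapping groups, and Casp8 and Ninj1, which ruptures the membrane of dying cells, were at 0.077 and 0.038.

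**Figure D4:**
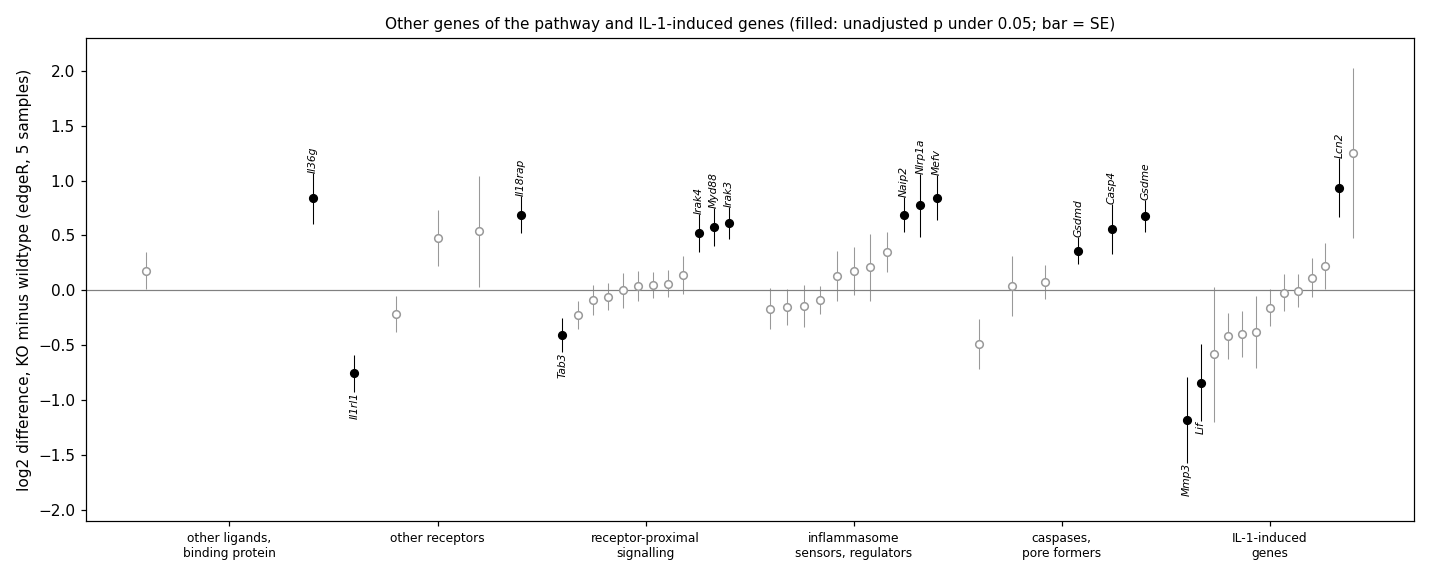
Log2 difference (KO minus wildtype, edgeR, 5 samples) of 36 other pathway genes in 5 lists and of 13 genes that interleukin-1 induces, with each point a gene and its bar the SE. Filled, named points have an unadjusted p under 0.05 (11 pathway genes above 0 and 2 below), and none passed after adjustment over all genes.

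To see whether genes induced by interleukin-1 in chondrocytes differed along with the cytokine, a list of 20 was examined. All 20 were in the table and 13 were tested, while Adamts4, Nos2, Ptgs2, Il6, Cxcl1, Cxcl2 and Ccl20 were under the filter. The log2 difference was above 0 for 4 and below 0 for 9, with a median of -0.16. By edgeR 0 were called after adjustment, 1 higher and 2 lower had an unadjusted p under 0.05 (7.63% and 6.07% of all tested genes), and DESeq2 called 1 of the 13, beside 5.72% of all tested genes.

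Lcn2, which encodes lipocalin-2 and is also a granule gene of neutrophils, had 1091, 1204 and 1222 FPKM in KO and 499, 721 and 600 FPKM in wildtype. All KO libraries were above all wildtype libraries, with a log2 difference of 0.94 (edgeR adjusted p = 0.214), and the neutrophil marker sum separated the libraries in the same direction. Mmp3 (stromelysin-1) was on the other side, with 0.982, 0.657 and 0.403 FPKM in KO and 1.51, 2.06 and 1.70 FPKM in wildtype. Its groups did not overlap (log2 difference -1.18, SE 0.39, edgeR adjusted p = 0.258). Mmp13, the main collagenase of cartilage, had 89.0, 78.8 and 80.9 FPKM in KO and 147, 99.5 and 98.0 FPKM in wildtype. Every KO library was below every wildtype library, with a log2 difference of -0.41 (edgeR adjusted p = 0.451). The osteoclast marker sum separated the libraries in the same direction. It was highest in wildtype replicate 1 (1257 FPKM), as Mmp13 was, and the part of osteoclasts was not tested. Lif, a cytokine of the interleukin-6 family, was at -0.84 (edgeR adjusted p = 0.357), also without overlap. Nfkbia and Nfkbiz, early targets of the transcription factor NF-kappaB, overlapped between the groups at 0.12 and -0.0011.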

How the data were processed

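Libraries were grouped by the sample titles. Per the labels, poly(A) RNA was made into strand-specific libraries with molecular identifiers and sequenced in pairs, and the submitters' processing notes name cutadapt 1.9, HISAT2 2.0.4, UMI-tools, StringTie 1.3.4d, DESeq2 and edgeR, with no roles given. The authors deposited 1 table with FPKM values, computed within each library, and estimated counts for 34709 genes (GRCm38). The deposited counts were whole numbers that piled up at 4 (6596 values, against 4170 at 3 and 2332 at 5), so a count is not a single read pair. The knocked-out gene is not reported here.

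Counts were fitted with edgeR 4.0.16 (R 4.3.3) using TMM scaling and the quasi-likelihood test over 15373 genes, which was tested on simulated data. KO replicates 2 and 3 were averaged (rounded). SEs are the log2 difference over the square root of F. All 10 members were named. Other genes were named at an unadjusted p under 0.05, or as the up to 4 with the highest mean FPKM in their list. Casp12 was named as well, as the gene of its list below 0. Il36g was matched through its RefSeq synonym, and 4 listed genes were not matched. Members, lists and tests were chosen with earlier results of these data known. Alternatives used DESeq2 1.42.0, limma 3.58.1 on log2(FPKM + 1) and log2(FPKM + 0.1), other filters, median-of-ratios scaling, counts divided by 4, a replicate block, and libraries left out.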

Additional observations from a re-analysis of the deposited data

How the results depend on the processing

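The members' directions varied little with the processing, whereas the number of calls depended on the tool and on how the KO libraries were treated. Of 166 log2 differences of the 10 members under the alternatives, 164 had the same sign, and the exceptions were Il1rn (-0.0065 with a minimum of 5 FPKM) and Il1rap (-0.094 without KO replicates 2 and 3, an alternative chosen after seeing the data). The threshold was passed by 10 of the 166, 6 of them (Il1b, Il18, Il1r2, Il1rap, Nlrp3 and Casp1) with the 6 libraries less KO replicate 1.

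Over all genes, against 0 in the 5-sample fit, 21 were called without a filter, 880 by DESeq2, 570 with the 6 libraries as labelled, 3405 with these less KO replicate 1, 9 without KO replicates 2 and 3, and 0 to 352 with each library left out, the highest being without KO replicate 1. For the members the counts were 2 by DESeq2, 1 with the 6 libraries, 6 with these less KO replicate 1, and 0 to 1 with each library left out. For the other pathway genes they were 7, 6, 16 and 0 to 6, and for the genes induced by interleukin-1 they were 1 by DESeq2, 3 with the 6 libraries less KO replicate 1, and 0 to 0 with each library left out. The cause of these moves was not tested, beyond the averaged pair counting as 2 samples in the 6-library fits.

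The deviations of same-numbered libraries from their group means had correlations across genes of -0.145, -0.108 and -0.0581. Since KO replicates 2 and 3 were nearly alike, these values depend on each other and cannot decide whether the replicate numbers pair the samples. With the replicate number as a block, 0 genes, 0 members, 0 other pathway genes and 0 induced genes were called from the 6 libraries, against 570 without it, and 5 of the 10 members had an unadjusted p under 0.05, beside 2809 of all 15373 tested genes.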
